A study of Mus musculus with 4 samples.

Results

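Ager, Hopx, Aqp5, Pdpn, Rtkn2, Clic5, Akap5 and Cav1 are genes by which alveolar type 1 cells of the lung are commonly recognized. They were taken from the table of gene counts by symbol, and each of the 8 symbols matched 1 of the 56748 genes listed. All 8 were among the 15320 genes that passed a filter on low counts and were tested.

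Alveolar type 1 cells are the broad, thin epithelial cells that line most of the gas-exchange surface of the lung, lying against the capillary endothelium. They arise during development and after injury from progenitors that include the cuboidal, surfactant-making alveolar type 2 cells, through a change of shape and of gene expression in which Hippo pathway and NKX2-1 regulators take part. Their markers encode a surface receptor, a water channel, membrane and cytoskeletal proteins and a transcriptional cofactor, and some of these genes are also used by other cells of the lung.

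RNA was sequenced from lungs of female BALB/cJ mice that were 7 weeks of age when they received 4T1-FLuc cells, a mouse line of triple-negative breast cancer that expresses luciferase, through the tail vein. In every sample compared, the lung therefore carried 4T1 metastases. Of the 4 samples, 2 came from mice given saline and 2 from mice given ADC/cmLumiOpto. The ADC was an antibody against CD276 joined to the microtubule inhibitor mertansine, and cmLumiOpto was an AAV inside exosomes coated with the antibody, which delivered a light-gated channel for mitochondria and was used with the luminescent substrate ViviRen. ADC alone and cmLumiOpto alone were not among the samples analysed here, so the effects of these agents cannot be told apart. The labels give 16 mg/kg of ADC, add the abbreviation Olap to the treatment, call the control PBS and describe tumor cells harvested from the lung after 3 weeks, whereas the methods of the study give 8 mg/kg, a saline control and dissociated lung tissue. The methods state 4 samples per group, of which 2 per group were analysed here. Nothing in the labels says whether the 2 samples of a group came from separate mice, and p-values then measure only the spread between these samples.

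The 4 libraries held between 15263375 and 19675436 counts in total, and a floor of 3 counts corresponded to between 0.152 and 0.197 CPM, which covers counting error only. CPM are counts relative to the library size, scaled by the TMM factors of edgeR. All 8 genes had at least 99 counts in each sample, so counting depth did not limit their detection. Saline sample 2 was the lowest of the 4 samples for every one of the 8 genes, and results are therefore also given without it. In bulk tissue, fewer cells of a type and less RNA per cell cannot be told apart.

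The 8 genes were higher on average in the ADC/cmLumiOpto lungs than in the saline lungs, but none had an adjusted p under 0.05. The differences ran from 4.94-fold for Hopx and 4.38-fold for Ager to 1.44-fold for Pdpn and 1.35-fold for Cav1. The median log2 fold change of the 8 genes was 1.55, against 0.03 over all tested genes. After Benjamini-Hochberg adjustment of the quasi-likelihood test in edgeR, 0% of the tested genes were called higher, so 0 of 8 equals the background. At an unadjusted p under 0.05, 6 of the 8 genes were higher, where 11.0% of the tested genes were. Both ADC/cmLumiOpto samples lay above both saline samples for 7 of the 8 genes, with Pdpn the exception, where 28.1% of the tested genes did so. With 2 samples per group, a two-sided exact permutation test cannot give a p below 0.333 for a single gene.

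**Figure D1:**
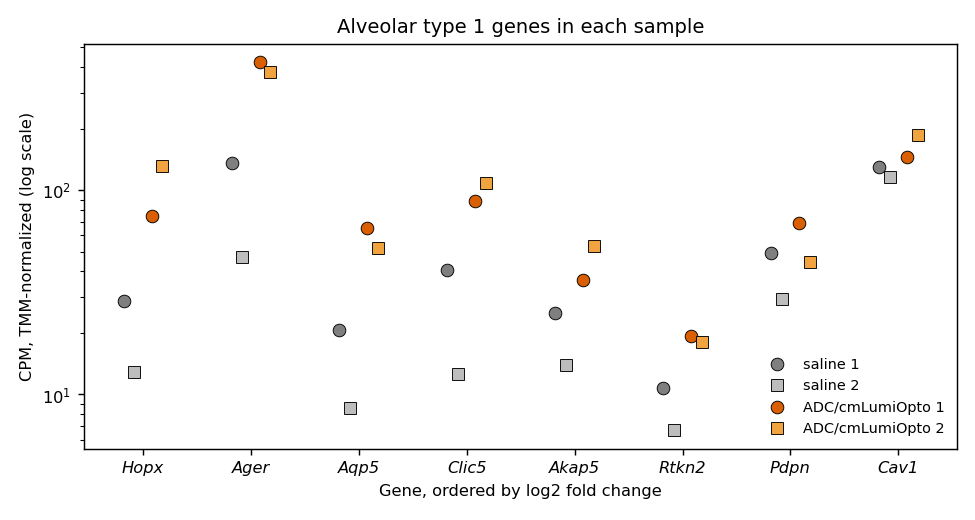
Level of each alveolar type 1 gene in each of the 4 samples, as TMM-normalized CPM on a log scale, with genes ordered by their log2 fold change. Saline sample 2 is the lowest point for each gene, and Pdpn is the only gene whose groups overlap.

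The number of calls depended on the test. Ager, Hopx, Aqp5, Rtkn2, Clic5 and Akap5 passed an adjusted p of 0.05 by the edgeR exact test, which called 3.96% of the tested genes higher. The same 6 genes passed by the Wald test of DESeq2, which called 4.28% higher, and by the quasi-likelihood test without the filter on low counts, which called 4.79% higher. Pdpn and Cav1 passed in none of these.

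Promoter windows were read for 7 of the 8 genes from RefSeq, on build GRCm38.p6, as the 250 bases before the transcription start. Shown are Ager and Clic5, which had large differences between the groups, and Pdpn and Cav1, which had the smallest. Capitals mark the sites of 6 motifs searched on both strands, namely TEAD (GGAATG), AP-1 (TGANTCA), FOXA (TGTTTNC), NKX2 (TNAAGTG), the GC box (GGGCGG) and the TATA motif (TATAAA). The windows are chr17:34597600-34597849 on the plus strand for Ager, chr17:44188322-44188571 on the plus strand for Clic5, chr4:143299565-143299814 on the minus strand for Pdpn and chr6:17306085-17306334 on the plus strand for Cav1, and none overlaps an annotated exon.
Ager: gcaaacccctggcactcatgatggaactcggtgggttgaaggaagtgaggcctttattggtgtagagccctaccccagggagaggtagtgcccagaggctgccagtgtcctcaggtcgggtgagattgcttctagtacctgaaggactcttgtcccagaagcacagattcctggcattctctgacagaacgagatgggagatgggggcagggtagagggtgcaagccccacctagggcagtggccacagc
Clic5: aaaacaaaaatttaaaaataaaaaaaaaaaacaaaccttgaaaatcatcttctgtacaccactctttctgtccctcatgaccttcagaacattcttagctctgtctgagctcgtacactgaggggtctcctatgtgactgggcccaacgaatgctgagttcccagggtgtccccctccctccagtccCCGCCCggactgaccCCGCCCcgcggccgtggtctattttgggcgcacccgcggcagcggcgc
Pdpn: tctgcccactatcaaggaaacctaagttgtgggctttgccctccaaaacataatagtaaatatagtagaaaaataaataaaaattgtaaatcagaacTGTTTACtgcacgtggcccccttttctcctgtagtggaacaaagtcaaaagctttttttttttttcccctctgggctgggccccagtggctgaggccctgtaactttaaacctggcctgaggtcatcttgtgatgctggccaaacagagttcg
Cav1: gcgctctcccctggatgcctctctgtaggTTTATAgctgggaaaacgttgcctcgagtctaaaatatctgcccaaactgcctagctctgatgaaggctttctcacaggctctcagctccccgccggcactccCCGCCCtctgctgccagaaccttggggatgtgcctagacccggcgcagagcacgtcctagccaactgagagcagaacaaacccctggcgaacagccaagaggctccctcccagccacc

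The Ager window held none of the 6 motifs, and the Clic5 window held 2 GC boxes. The Pdpn window held 1 FOXA match, which began 153 bases before the start. The Cav1 window shown, the first of 2 for that gene, held 1 GC box and 1 TATA match. Hopx and Cav1 had 2 windows each, and a gene was counted if either window held the motif. The shares over RefSeq are per window, so they are not in the same unit as the counts of genes. Over the 7 genes, a GC box was found for 4, against 32.7% of 32851 RefSeq windows, FOXA for 1, against 17.8%, and TATA for 1, against 12.4%. Among the genes with a GC box, the Aqp5 window overlaps an annotated Aqp5 exon. TEAD, AP-1 and NKX2 matches were found for 0 of 7, where 12.6%, 6.75% and 10.1% of all windows held one. A match of letters is a description and not a site of binding, and no match says only that these letters are not in this window.

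Ager encodes the receptor for advanced glycation end products, a surface protein that is abundant on the basal membrane of alveolar type 1 cells. The gene (ENSMUSG00000015452) is listed on the plus strand of chr17:34816836-34819910. Positions of genes are those of the count table, and the submitters' processing notes name the build mm39. Ager had 2171 and 698 counts in saline samples 1 and 2 and 7448 and 7763 counts in ADC/cmLumiOpto samples 1 and 2. Both treated samples were high and close to each other, and the saline samples were low and apart. In CPM, the level was 91.4 ± 62.7 (SD, n = 2) in saline and 400 ± 30.8 (SD, n = 2) in ADC/cmLumiOpto. Ager had a log2 fold change of 2.13 with a standard error of 0.46 and an adjusted p of 0.116 by edgeR's quasi-likelihood test. The lower treated sample was 2.79 times the higher saline sample.

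Aqp5, a water channel of the apical membrane, is listed on the plus strand of chr15:99488663-99492710 (ENSMUSG00000044217). It had 330 and 127 counts in saline samples 1 and 2 and 1158 and 1069 counts in ADC/cmLumiOpto samples 1 and 2. As for Ager, both treated samples were high and saline sample 2 was the lowest. In CPM, the level was 14.6 ± 8.53 (SD, n = 2) in saline and 58.9 ± 9.55 (SD, n = 2) in ADC/cmLumiOpto. The groups did not overlap, and Aqp5 had a log2 fold change of 2.01 with a standard error of 0.40 and an adjusted p of 0.116 by edgeR's quasi-likelihood test.

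Pdpn, or podoplanin, is a mucin-type membrane glycoprotein that lymphatic endothelium, mesothelium and some fibroblasts also carry. It is listed on the minus strand of chr4:142994001-143026134 (ENSMUSG00000028583). Its counts were 787 and 434 in saline samples 1 and 2 and 1217 and 911 in ADC/cmLumiOpto samples 1 and 2. In CPM, the level was 49.2 in saline sample 1, 29.3 in saline sample 2, 69.0 in ADC/cmLumiOpto sample 1 and 44.4 in ADC/cmLumiOpto sample 2. The groups overlapped, with saline sample 1 above ADC/cmLumiOpto sample 2. Pdpn had a log2 fold change of 0.53 with a standard error of 0.31 and an adjusted p of 0.343 by edgeR's quasi-likelihood test, so the difference was within the spread of the samples.

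Hopx encodes a small homeodomain protein that does not bind DNA itself and acts as a transcriptional cofactor. It is listed on the minus strand of chr5:77234835-77262968 (ENSMUSG00000059325). Its counts were 461 and 192 in saline samples 1 and 2 and 1323 and 2696 in ADC/cmLumiOpto samples 1 and 2. Unlike Ager and Aqp5, it was higher in ADC/cmLumiOpto sample 2 than in sample 1, by 1.75 times in CPM. The level was 20.9 ± 11.2 CPM (SD, n = 2) in saline and 103 ± 39.9 CPM (SD, n = 2) in ADC/cmLumiOpto, without overlap. The log2 fold change of 2.30 was the largest of the 8 genes, with a standard error of 0.43 and an adjusted p of 0.116 by edgeR's quasi-likelihood test. Hopxos, a long noncoding gene on the opposite strand that overlaps Hopx, had at most 7 counts in a sample, and whether the counting used strand is not given in the sources used here.

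Clic5 belongs to the chloride intracellular channel family and is linked to the actin cytoskeleton under the membrane. It is listed on the plus strand of chr17:44445659-44591059 (ENSMUSG00000023959). Its counts were 648 and 186 in saline samples 1 and 2 and 1568 and 2220 in ADC/cmLumiOpto samples 1 and 2. The saline samples differed by 3.23 times in CPM, the widest gap of the 8 genes, yet both lay below both treated samples. The level was 26.5 ± 19.8 CPM (SD, n = 2) in saline and 98.6 ± 13.7 CPM (SD, n = 2) in ADC/cmLumiOpto. Clic5 had a log2 fold change of 1.89 with a standard error of 0.49 and an adjusted p of 0.123 by edgeR's quasi-likelihood test.

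Akap5 encodes an anchoring protein that holds protein kinase A and other signaling enzymes at the membrane, and is listed on the plus strand of chr12:76371665-76380927 (ENSMUSG00000021057). Its counts were 401 and 206 in saline samples 1 and 2 and 642 and 1096 in ADC/cmLumiOpto samples 1 and 2. As for Hopx, the second treated sample was the highest, and the groups did not overlap. In CPM, the level was 19.5 ± 7.91 (SD, n = 2) in saline and 44.9 ± 12.1 (SD, n = 2) in ADC/cmLumiOpto. The log2 fold change was 1.20 with a standard error of 0.33 and an adjusted p of 0.126 by edgeR's quasi-likelihood test.

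Rtkn2 is listed on the plus strand of chr10:67815400-67895570 (ENSMUSG00000037846). Its counts were 172 and 99 in saline samples 1 and 2 and 343 and 371 in ADC/cmLumiOpto samples 1 and 2, the lowest counts of the 8 genes. Both treated samples were nearly level and above both saline samples. The level was 8.71 ± 2.88 CPM (SD, n = 2) in saline and 18.8 ± 0.953 CPM (SD, n = 2) in ADC/cmLumiOpto. The log2 fold change was 1.10 with a standard error of 0.30 and an adjusted p of 0.126 by edgeR's quasi-likelihood test.

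Cav1 encodes caveolin-1, the coat protein of caveolae, which endothelial cells and fibroblasts also make in quantity. It is listed on the plus strand of chr6:17306334-17341451 (ENSMUSG00000007655). Its counts were 2073 and 1725 in saline samples 1 and 2 and 2576 and 3835 in ADC/cmLumiOpto samples 1 and 2. In CPM, the level was 130 in saline sample 1, 116 in saline sample 2, 146 in ADC/cmLumiOpto sample 1 and 187 in ADC/cmLumiOpto sample 2. The groups did not overlap, but the lower treated sample was only 1.13 times the higher saline sample. The log2 fold change of 0.44 was the smallest of the 8 genes, with a standard error of 0.19 and an adjusted p of 0.224 by edgeR's quasi-likelihood test.

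The size of the differences depended on single samples. Without saline sample 2, the log2 fold changes were 1.56 for Ager, 1.84 for Hopx, 1.52 for Aqp5 and 1.28 for Clic5, and the median over the 8 genes was 1.06. Without saline sample 1, those 4 genes had log2 fold changes of 3.08, 2.98, 2.77 and 2.96, and the median was 2.22. In that fit, in which the lone saline sample is assumed to vary like the other group, the same 4 genes had adjusted p-values between 0.00644 and 0.0170 by edgeR's quasi-likelihood test, which there called 164 of 16296 genes higher (1.01%). Without saline sample 2, no member passed, with adjusted p-values between 0.206 and 0.828. Without ADC/cmLumiOpto sample 1, the log2 fold changes were 2.65 for Hopx and 0.18 for Pdpn. Without ADC/cmLumiOpto sample 2, they were 1.84 for Hopx and 0.81 for Pdpn. Pdpn ranged between 0.18 and 0.94 and Cav1 between 0.24 and 0.61 over the samples left out.

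**Figure D2:**
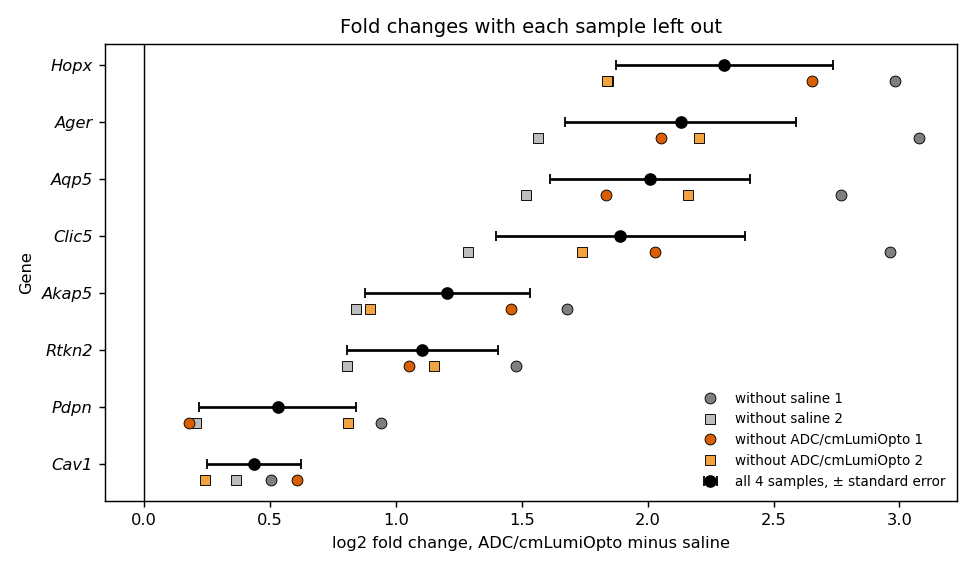
Log2 fold change of each gene, ADC/cmLumiOpto minus saline, with all 4 samples (black, bars are standard errors) and after leaving out 1 sample. Every value lies above 0, and for 7 of the 8 genes the value is largest without saline sample 1, the exception being Cav1, where it is largest without ADC/cmLumiOpto sample 1.

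Divided by the gene length that the table lists, the order of the genes differed between the groups. In saline, the mean level in CPM per kb was 42.7 for Ager, 35.7 for Cav1, 21.6 for Pdpn, 13.8 for Hopx, 5.62 for Aqp5, 2.85 for Akap5, 2.74 for Clic5 and 1.57 for Rtkn2. On this scale, the range of Ager overlapped those of Cav1 and Pdpn, and the range of Pdpn also overlapped that of Hopx. The ranges of Aqp5 and Akap5, Aqp5 and Clic5, Akap5 and Clic5, and Clic5 and Rtkn2 overlapped as well. Within each saline sample, however, Ager was above Pdpn, Pdpn above Hopx, Aqp5 above Akap5 and Clic5, and Clic5 above Rtkn2. The order of Ager and Cav1, and that of Akap5 and Clic5, changed between the 2 saline samples. In ADC/cmLumiOpto, the mean level in CPM per kb was 187 for Ager, 68.1 for Hopx, 48.3 for Cav1, 31.2 for Pdpn, 22.7 for Aqp5, 10.2 for Clic5, 6.58 for Akap5 and 3.38 for Rtkn2. On this scale Ager stood clear of the rest in both treated samples, while the ranges of Hopx and Cav1 overlapped, as did those of Pdpn and Aqp5. Within each treated sample, Hopx was above Cav1 and Pdpn above Aqp5.

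Ratios within a sample do not depend on the scaling between samples. Ager over Cav1, in CPM, was 1.05 and 0.405 in saline and 2.89 and 2.02 in ADC/cmLumiOpto. Ager over Pdpn was 2.76 and 1.61 in saline and 6.12 and 8.52 in ADC/cmLumiOpto. Both ratios were higher in both treated samples. Ager over Hopx, by contrast, was 4.71 and 3.64 in saline and 5.63 and 2.88 in ADC/cmLumiOpto, so the groups overlapped. Aqp5 over Ager stayed between 0.138 and 0.182 in the 4 samples, and Clic5 over Ager stayed between 0.211 and 0.298. These pairs were chosen after the values were seen and are given without a test.

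**Figure D3:**
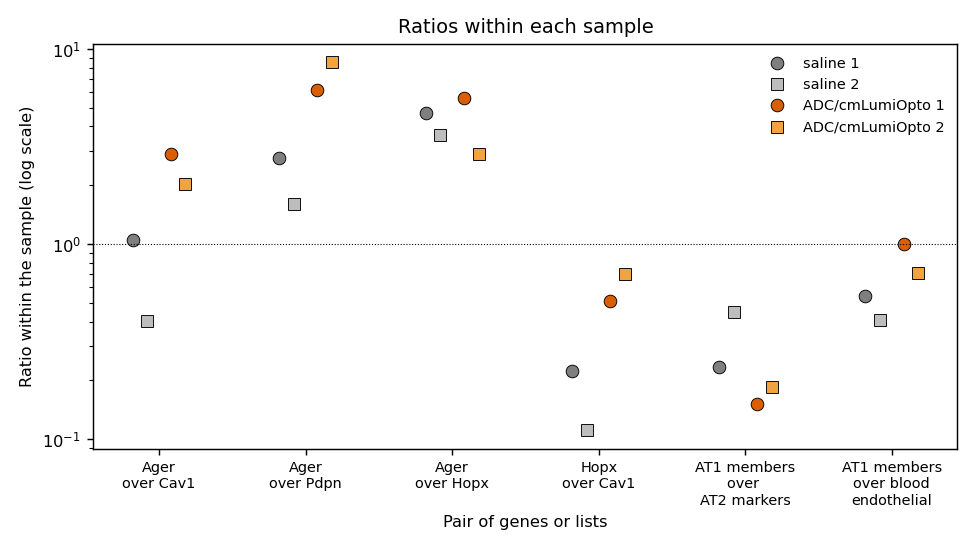
Ratios between the CPM of a pair of genes, or between the summed CPM of a pair of lists, within each of the 4 samples on a log scale. Ager over Cav1 and Ager over Pdpn are higher in both treated samples, and Ager over Hopx overlaps between the groups. The type 1 genes over the type 2 markers, sums in which Ager, Cav1 and Sftpc weigh heavily, are lower in both treated samples.

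Of 18 other genes of alveolar type 1 cells, 15 were higher and 3 lower in ADC/cmLumiOpto, and 0 passed the adjusted threshold. Their median log2 fold change was 1.02, 12 of the 18 were higher at an unadjusted p under 0.05 (11.0% of all tested genes), and 13 did not overlap in the upward direction (28.1% of all tested genes). Summed CPM differed less, at 1293 and 1099 in saline and 1580 and 1710 in ADC/cmLumiOpto. Emp2, at 328 and 317 CPM in saline, had a log2 fold change of 0.15, and that of Vegfa was -0.33. The 3 genes named next had the smallest unadjusted p. Scnn1b, a subunit of the epithelial sodium channel, was 8.88 and 3.91 CPM in saline and 24.8 and 29.2 CPM in ADC/cmLumiOpto. Its log2 fold change was 2.07 with a standard error of 0.40 and an adjusted p of 0.116 by edgeR's quasi-likelihood test. The cytochrome P450 genes Cyp4b1 and Cyp2b10 had log2 fold changes of 1.93 and 2.04, also with an adjusted p of 0.116 by that test. Cav2, the partner of caveolin-1, and Cavin1, another caveola protein, had small log2 fold changes of 0.56 and -0.23, as Cav1 did. The part of other lung cells in the values of these 18 genes was not tested.

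**Figure D4:**
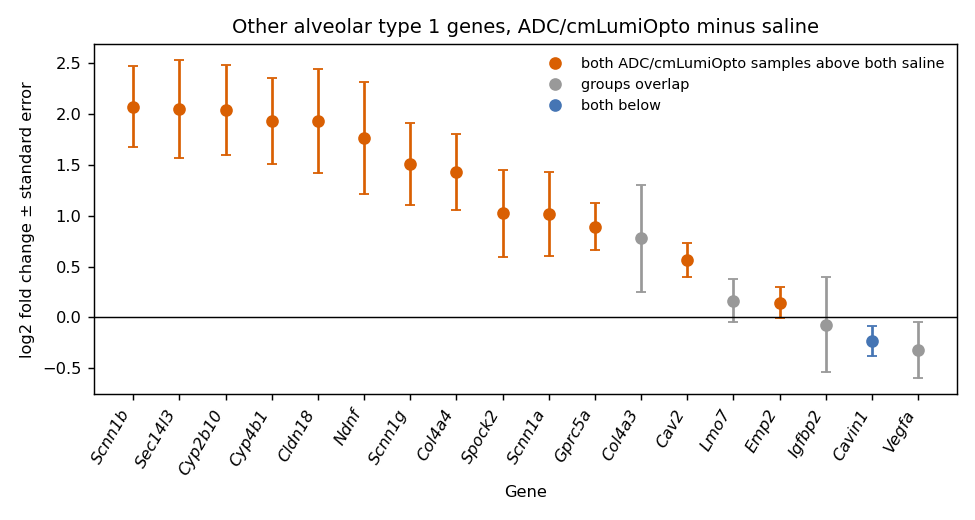
Log2 fold changes of 18 other alveolar type 1 genes, ADC/cmLumiOpto minus saline, with standard errors, colored by whether the samples of the groups overlap. Fold changes run from 2.07 for Scnn1b to -0.33 for Vegfa.

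Of 10 transcriptional regulators of the alveolar epithelium, 3 were higher and 7 lower, and 0 passed the adjusted threshold. Nkx2-1, the lung lineage factor, was 6.94 and 1.95 CPM in saline and 16.0 and 23.3 CPM in ADC/cmLumiOpto, with a log2 fold change of 2.14. Tead1 and Wwtr1, the DNA-binding partner and the coactivator at the end of the Hippo pathway, lay the other way. Tead1 was 138 and 149 CPM in saline and 55.7 and 84.4 CPM in ADC/cmLumiOpto, and Wwtr1 was 344 and 494 CPM in saline and 237 and 242 CPM in ADC/cmLumiOpto. The adjusted p-values were 0.123 for Nkx2-1 and Wwtr1 and 0.116 for Tead1 by edgeR's quasi-likelihood test. Which cells of the bulk tissue carried these transcripts was not tested.

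Markers of other epithelial cells of the lung were higher alongside the type 1 genes. Despite the label of tumor cells, lung epithelial markers were present in every sample, with Sftpc, the surfactant protein C gene, at 174 CPM in the lowest sample. Of 11 type 2 cell markers, 10 were higher and 1 lower, with a median log2 fold change of 2.06, and their summed CPM was 1872 and 548 in saline and 6107 and 5277 in ADC/cmLumiOpto. The named examples were Napsa, a surfactant-processing protease, with a log2 fold change of 1.69, Sftpd, a surfactant protein, with 2.40, and the complement gene Hc with 2.34. Summed over the 8 type 1 genes, CPM was 440 and 247 in saline and 922 and 973 in ADC/cmLumiOpto. The summed type 1 genes over the summed type 2 markers were 0.235 and 0.451 in saline and 0.151 and 0.184 in ADC/cmLumiOpto, lower in both treated samples. Single genes weigh heavily in this ratio. Cav1 made up 29.4% and 47.0% of the type 1 sum in saline and 15.8% and 19.2% in ADC/cmLumiOpto. Ager made up 30.8% and 19.0% of it in saline and 45.8% and 38.9% in ADC/cmLumiOpto. Sftpc was 1017 and 174 CPM in saline and 4321 and 3426 CPM in ADC/cmLumiOpto. Gene by gene, the type 1 log2 fold changes ran from 0.44 for Cav1 to 2.13 for Ager and 2.30 for Hopx. All 7 tested of 8 airway epithelial markers were higher, and Scgb3a1 had a log2 fold change of 3.25. The summed CPM of the airway markers was 1153 and 82.3 in saline and 6226 and 2973 in ADC/cmLumiOpto. Scgb1a1 weighed heavily in that sum, at 1085 and 73.9 CPM in saline and 5819 and 2781 CPM in ADC/cmLumiOpto. Saline sample 2 was thus the lowest sample for the type 1, type 2 and airway sums alike. Fits without it were made for the 8 genes and not for the type 2 and airway lists, and its part in the differences of those lists was not tested.

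**Figure D5:**
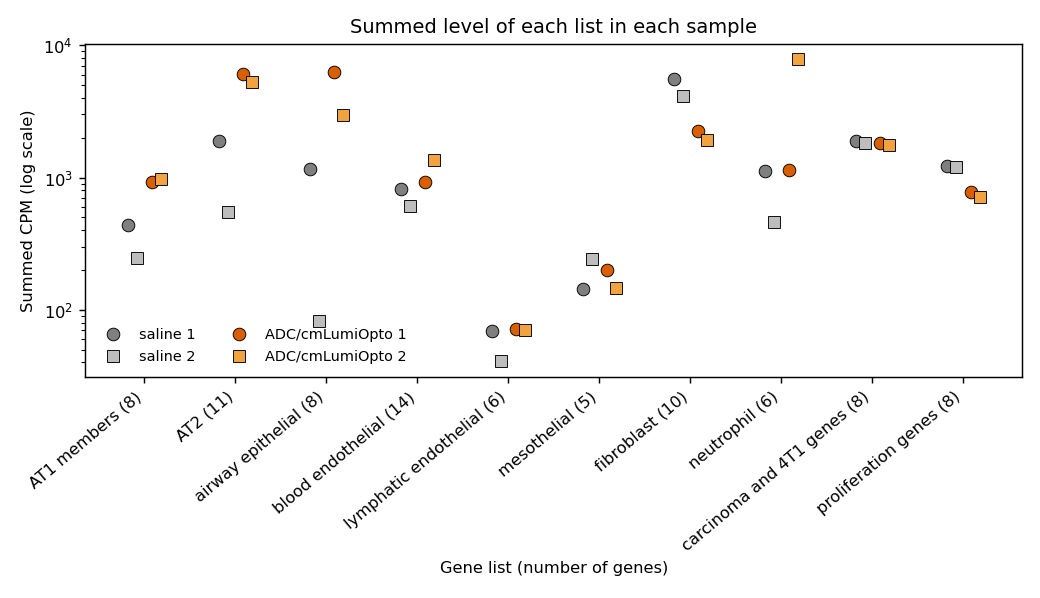
Summed CPM of the 8 type 1 genes and of marker lists for other cells in each of the 4 samples, on a log scale. Type 1, type 2 and airway sums are highest in the treated samples and lowest in saline sample 2. Scgb1a1 weighs heavily in the airway sum. The fibroblast sum, in which collagen genes weigh heavily, and the proliferation sum are lower in the treated samples. ADC/cmLumiOpto sample 2 alone has a high neutrophil sum.

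Cells that share Cav1 or Pdpn with type 1 cells were covered by lists of their own. Of 14 blood endothelial markers, 12 were higher and 2 lower, with a median log2 fold change of 0.94 and summed CPM of 817 and 607 in saline and 924 and 1363 in ADC/cmLumiOpto. Car4, a carbonic anhydrase of the capillary endothelium that lies against type 1 cells, was 7.56 and 7.21 CPM in saline and 25.1 and 39.5 CPM in ADC/cmLumiOpto, with an adjusted p of 0.116 by edgeR's quasi-likelihood test. Of 10 fibroblast markers, 7 were lower and 3 higher, and their summed CPM was 5576 and 4140 in saline and 2241 and 1936 in ADC/cmLumiOpto. The fibroblast gene Col1a1 was 2058 and 1362 CPM in saline and 437 and 405 CPM in ADC/cmLumiOpto. Collagen genes weighed heavily in the fibroblast sum, with Col1a2 at 1246 and 767 CPM and Col3a1 at 1403 and 1000 CPM in saline. The 3 higher genes were Tcf21, Pi16 and Mfap4, with log2 fold changes of 2.21, 2.12 and 1.44. Of the 6 lymphatic markers, 5 were higher, with sums between 40.7 and 71.3 CPM over all samples, and Lyve1 had a log2 fold change of 0.58. Prox1, which defines lymphatic endothelium, was near 0, between 0.202 and 0.938 CPM, and Reln had 0 counts in saline sample 2. Of the 5 mesothelial markers, 3 were higher and 2 lower, with sums between 145 and 241 CPM, and Wt1 had a log2 fold change of -0.74. The part of these cells in the values of Cav1 and Pdpn was not tested.

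Other lists differed less evenly between the groups. Among 7 markers of cells in transition between type 2 and type 1, 2 were higher and 5 lower, and Hbegf, an EGF family ligand, had a log2 fold change of -0.84. The keratin gene Krt8, also in that list, was 1141 and 1543 CPM in saline and 1131 and 1117 CPM in ADC/cmLumiOpto. These lungs carried 4T1 cells, and the part of those cells in the values of that list was not tested. The keratin-rich list of carcinoma and 4T1 genes summed to between 1771 and 1899 CPM in the 4 samples, and in it Cd276, the target of the ADC, had a log2 fold change of -0.63. Of 8 proliferation genes, 7 were lower and 1 higher, and Foxm1, a regulator of mitotic genes, had a log2 fold change of -0.98. The 6 neutrophil markers summed to 1125 and 464 CPM in saline and 1141 and 7853 CPM in ADC/cmLumiOpto, so that 1 treated sample stood apart, and S100a9 had a log2 fold change of 2.61. Without that sample, the log2 fold changes were 2.20 for Ager, 1.84 for Hopx and 0.24 for Cav1. Of the remaining lists, the 7 tested of 8 T and NK cell markers were all higher (Gzma at 3.08). Of 8 macrophage markers, 4 were higher and 4 lower (Mrc1 at -0.98). Of 7 mural markers, 4 were higher (Cox4i2 at 1.60) and 3 lower, but their summed CPM was lower in both treated samples. That sum was 257 and 268 in saline and 184 and 188 in ADC/cmLumiOpto. No gene of any list passed the adjusted threshold of edgeR's quasi-likelihood test, nor did any of the 15320 tested genes, whose smallest adjusted p was 0.116, while 3553 had an unadjusted p under 0.05 and DESeq2 called 1353.

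Outside the lists, the 5 genes whose centred log2 CPM over the 4 samples lay nearest to the mean profile of the 8 genes were Vipr1, Wdr27, Bnipl, Ushbp1 and Stap1. Their root-mean-square distances were 0.0224 for Vipr1, 0.0387 for Wdr27, 0.0425 for Bnipl, 0.0444 for Ushbp1 and 0.0466 for Stap1 on the log2 scale. Vipr1, a receptor for vasoactive intestinal peptide, had 11 and 4 counts in saline and 25 and 32 counts in ADC/cmLumiOpto, and of the 5 only Ushbp1 had more than 37 counts in a sample. The 8 genes themselves were between 0.226 for Akap5 and 0.635 for Cav1 from their own mean profile, so low-count genes came nearer to the mean than any member. Likeness over 4 samples is a description only.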

How the data were processed

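The members and gene lists were chosen with earlier results of these data known. Sequencing of polyadenylated RNA used an Illumina HiSeq instrument. The authors aligned reads with HISAT2 and deposited gene counts that were not normalized. The methods of the study name GRCm38, the submitters' processing notes name mm39 (with HISAT, HISAT2 and TopHat2), and the listed positions of all 8 genes differ from GRCm38. The counting settings are not given in the sources used here.

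The fit used edgeR 4.0.16 under R 4.3.3: filterByExpr (minimum count 10, minimum total 15), TMM, estimateDisp, glmQLFit with its installed default (legacy quasi-dispersion) and glmQLFTest, with Benjamini-Hochberg adjustment and a threshold of 0.05. Only the 2 saline and 2 ADC/cmLumiOpto samples entered. The standard error is the log2 fold change divided by the square root of F, with a prior count of 0.125 for log2 fold changes. Scripts were tested on simulated data. Total counts are given with the results.

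Alternatives were DESeq2 1.42.0, library size, upper quartile, other filters, the exact test, protein-coding genes, a length trend removed, a replicate block and each sample left out. Legacy quasi-dispersion had been listed as an alternative but is the installed default, so the non-legacy estimate took its place after the data had been seen. All 8 members were named, with the 3 smallest unadjusted p of the other type 1, regulator and type 2 lists, 1 for each other list, and the 5 nearest profiles. Cav2, Cavin1, Emp2, Vegfa, Sftpc, Prox1 and Reln were named after their values were seen. So were Col1a2, Col3a1, Tcf21, Pi16, Mfap4, Krt8 and Scgb1a1.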

Additional observations from a re-analysis of the deposited data

How the results depend on the processing

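No member changed direction in any of 14 alternatives. By the quasi-likelihood test 0 of 8 members and 0 genes passed the adjusted threshold, and so they did with library size, upper quartile, at least 10 counts in every sample, protein-coding genes only, the length trend removed and non-legacy quasi-dispersion. DESeq2 called 6 members, all higher, and 1353 of 13537 genes, 579 of them higher. The exact test called 6 members, all higher, and 1170 of 15320 genes, 606 of them higher. The test without the filter called 6 members, all higher, and 2259 of 25563 genes, 1224 of them higher. The cause was not tested. The replicate block called 4 members (Ager, Hopx, Aqp5 and Clic5), all higher, and 607 of 15320 genes, 308 of them higher. The replicate numbers share only a number: same-numbered samples' deviations from the group means correlated at 0.0985 over 15320 genes. With single samples left out, between 0 and 4 members and between 0 and 218 genes passed, both highest without saline sample 1 (218 of 16296). The median log2 fold change of the members was between 1.06 and 2.22 with a sample left out and between 1.54 and 1.67 otherwise. The lowest count of a member in a sample was 99, so depth did not limit detection of the members.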
